A study of Homo sapiens with 6 samples.

Results

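INSIG1, HMGCS1, IDI1 and FDPS were described across 6 arrays of A549, a long-established cell line from a human lung adenocarcinoma. They are the 4 genes, of 14884 named genes measured, that carry these symbols in the platform annotation, and they had 5 array features between them, 2 of which belong to FDPS. All arrays came from cells grown for 24 h at 37 °C. There was 1 array in each of 6 groups: X-rays alone (3 Gy), 41.5 °C for 1 h, the same heat followed at once by 3 Gy, 1 h at 44 °C, that heat followed by 3 Gy, and an untreated control. Cells that were only heated or only irradiated were kept for 3 h at 37 °C before RNA was taken. The labels do not state that time for the combined treatments or for the control. A difference that involves any of these arrays, with X-ray differences among them, may therefore include time in culture. The labels do not say that each array stands for its own culture. With 1 array per group, p-values rest on how far arrays depart from a sum of temperature and X-ray effects. That spread may be technical or hold an interaction of heat and X-rays.

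Cholesterol is built from acetyl-CoA through the mevalonate pathway. HMGCS1, the cytosolic HMG-CoA synthase, makes HMG-CoA, the precursor of mevalonate; IDI1 isomerises isopentenyl pyrophosphate, the basic isoprene unit; and FDPS joins these units into farnesyl pyrophosphate, where the routes to sterols and to other isoprenoids part. Transcription of the enzymes is driven by SREBP2, a factor that leaves the endoplasmic reticulum with its escort SCAP when sterols are scarce. INSIG1 holds SCAP in the endoplasmic reticulum when sterols are plentiful. The INSIG1 gene is itself a target of SREBP, so brake and enzymes often rise and fall together in the sterol response.

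The sequences around the start sites of the 4 genes are shown because they are where the brake and the enzymes can share control elements. Each is a RefSeq window (build GRCh38.p14) of 300 bases, 5′ to 3′ on the gene's strand, most of which lie before the start of transcription: chr7:155297628-155297927 on the + strand for INSIG1, chr5:43313363-43313662 on the - strand for HMGCS1, chr10:1048837-1049136 on the - strand for IDI1, and chr1:155308616-155308915 on the + strand for FDPS. HMGCS1 has 2 windows and IDI1 has 3, and the one with most motif matches is printed. Capitals mark matches on either strand to CACNCCAC (a relaxed core of the sterol regulatory element), CCAAT (the box bound by NF-Y, a partner of SREBP), CACGTG (the E-box) and GAANNTTC (a pair of heat shock element units), so that ATTGG is CCAAT read on the other strand.
INSIG1: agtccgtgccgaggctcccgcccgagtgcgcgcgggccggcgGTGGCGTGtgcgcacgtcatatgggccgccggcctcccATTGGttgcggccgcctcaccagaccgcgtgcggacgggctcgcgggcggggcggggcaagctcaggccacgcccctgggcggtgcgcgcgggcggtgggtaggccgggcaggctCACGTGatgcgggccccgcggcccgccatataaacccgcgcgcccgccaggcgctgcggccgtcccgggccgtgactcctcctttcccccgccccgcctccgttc
HMGCS1: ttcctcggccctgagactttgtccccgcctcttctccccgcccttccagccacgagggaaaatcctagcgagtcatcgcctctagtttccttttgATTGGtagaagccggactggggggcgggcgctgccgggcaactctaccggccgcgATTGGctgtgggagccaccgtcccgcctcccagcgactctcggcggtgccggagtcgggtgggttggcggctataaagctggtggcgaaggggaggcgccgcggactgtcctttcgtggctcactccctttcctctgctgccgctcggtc
IDI1: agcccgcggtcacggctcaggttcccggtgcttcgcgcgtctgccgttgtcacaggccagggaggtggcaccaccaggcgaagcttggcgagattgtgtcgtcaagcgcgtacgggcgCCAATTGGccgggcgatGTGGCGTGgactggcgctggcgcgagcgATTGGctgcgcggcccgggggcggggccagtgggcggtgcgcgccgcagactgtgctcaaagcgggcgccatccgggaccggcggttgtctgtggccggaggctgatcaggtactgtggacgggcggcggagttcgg
FDPS: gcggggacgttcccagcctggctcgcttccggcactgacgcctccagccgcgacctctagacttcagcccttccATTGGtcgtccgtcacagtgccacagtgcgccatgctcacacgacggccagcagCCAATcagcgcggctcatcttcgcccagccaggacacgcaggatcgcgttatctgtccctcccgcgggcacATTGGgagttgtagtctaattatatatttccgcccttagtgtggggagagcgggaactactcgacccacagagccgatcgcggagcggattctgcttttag

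CCAAT was present in all 4 printed windows, once for INSIG1, at 2 places for HMGCS1 and at 3 each for IDI1 and FDPS, where 2 of the IDI1 matches overlap. Of the 35116 RefSeq windows, 34.6% hold it. CACNCCAC was found in the INSIG1 window at -208 and in the IDI1 window at -115 from the start site, and in 5.87% of all windows. The E-box CACGTG was found in the INSIG1 window alone among these 4, at -55, and in 7.26% of all windows. GAANNTTC, present in 6.77% of all windows, had 0 matches in them. The printed windows of HMGCS1 and IDI1 were picked by these matches, so their counts cannot be set beside the shares of all windows. The unprinted HMGCS1 window held 0 CCAAT matches, and the unprinted IDI1 windows held 0 and 2. CACNCCAC had 0 matches in the unprinted IDI1 windows. A match describes the letters and is not evidence of binding.

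**Figure D1:**
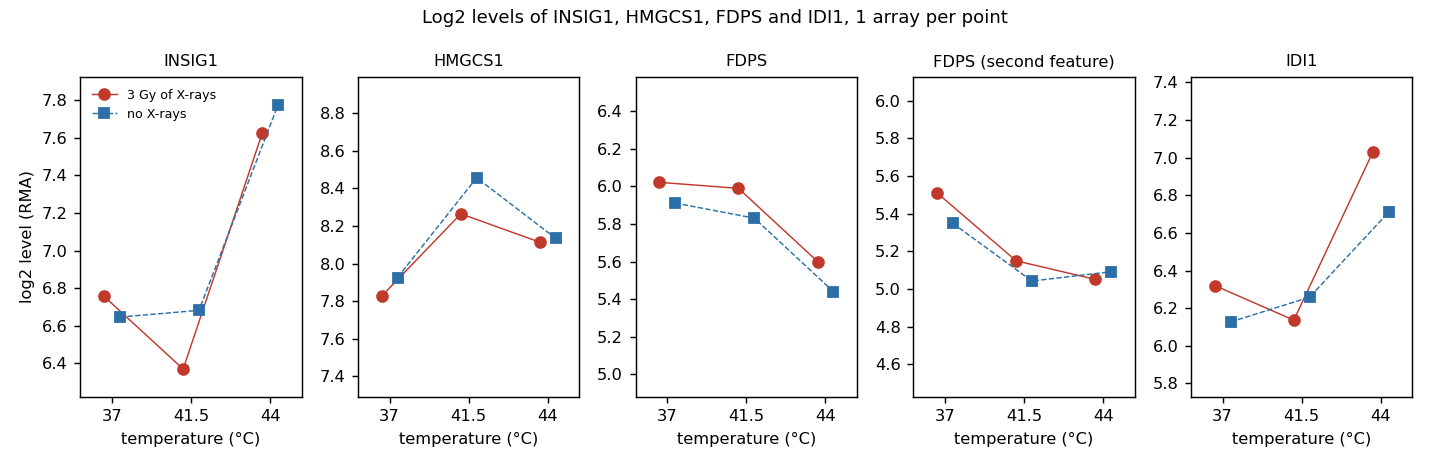
Log2 level (RMA, vertical axis, the same span of 1.7 in each panel) of each feature of INSIG1, HMGCS1, FDPS and IDI1 at 37, 41.5 and 44 °C (horizontal axis), with 1 array per point. Red circles are arrays with 3 Gy of X-rays and blue squares arrays without. INSIG1 and IDI1 are highest in both arrays at 44 °C, and HMGCS1 is highest at 41.5 °C. The first FDPS feature is lowest at 44 °C, and the second is lower at 41.5 and 44 °C than at 37 °C.

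The 6 arrays had medians between 4.39 and 4.46 on the log2 scale. With 1 array per group, tests came from a limma model of all 6 arrays that holds a level for each temperature and 1 shift for radiation, so that 2 arrays stand at each temperature. Where arrays of different temperatures are said to lie apart, this describes the values, and its share over all genes was not counted. Calls were made below 0.05 after Benjamini-Hochberg adjustment over 14884 genes. At 44 °C against 37 °C, 3.57% of all genes were called higher and 2.54% lower, and at 41.5 °C against 37 °C 2.18% and 1.1%. Between 44 °C and 41.5 °C the shares were 4.9% higher and 7.23% lower. The balance depends on scaling: a further quantile normalization gave 485 genes higher and 596 lower at 44 °C, in place of 532 and 378, and 273 higher and 229 lower at 41.5 °C, in place of 325 and 164. Centring the arrays on their medians gave 467 and 538 at 44 °C and, between 44 °C and 41.5 °C, 580 higher and 1432 lower in place of 729 and 1076. Among epithelial markers, KRT8, KRT18, KRT7 and EPCAM lay above the median gene in all 6 arrays and KRT19 below it. None of 3 alveolar type II, 2 fibroblast or 2 endothelial markers did so, and the 1 measured leukocyte marker, CD14, was higher at 44 °C than at 41.5 °C (0.77 ± 0.13 (SE), adjusted p = 0.00362). In that comparison EPCAM was also higher (0.45 ± 0.11, adjusted p = 0.0249) and KRT7 lower (-0.40 ± 0.10, adjusted p = 0.023). The part of these markers in the results was not tested.

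INSIG1 doubled at 44 °C. Its log2 level was 6.76 with X-rays and 6.65 without at 37 °C, 6.37 and 6.68 at 41.5 °C, and 7.62 and 7.77 at 44 °C. Both arrays at 44 °C stood above the other 4, and the lowest of all was the 41.5 °C array with X-rays. The rise at 44 °C against 37 °C was 2.0-fold, a log2 difference of 1.00 ± 0.11 (SE, 2 arrays at each temperature; 95% interval 0.75 to 1.25; limma, adjusted p = 4.57e-04), which ranked 165 from the top of the 14884 genes. It was seen in both pairs of arrays, as 0.87 with X-rays and 1.13 without. RefSeq places INSIG1-DT over 1.1 kb and LOC105375592 over 0.043 kb of INSIG1, both on the opposite strand; neither was analysed here.

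At 41.5 °C INSIG1 did not pass the test: its difference from 37 °C was -0.18 ± 0.11 (interval -0.43 to 0.07; limma, adjusted p = 0.491). The pairs were split, at -0.39 with X-rays and 0.04 without. Set directly against 41.5 °C, INSIG1 was 2.26-fold higher at 44 °C (1.17 ± 0.11, adjusted p = 1.6e-04). Both calls held in all 6 fits that left out an array, with the rise against 37 °C between 0.83 and 1.17. Here and for other genes, a fit without an array of the temperature outside a comparison leaves that difference unchanged and alters only its spread.

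HMGCS1, the first of the 3 enzymes in the pathway, was called at the milder temperature. Its log2 level was 7.83 with X-rays and 7.93 without at 37 °C, 8.26 and 8.46 at 41.5 °C, and 8.11 and 8.13 at 44 °C. The arrays at 41.5 °C were the highest and those at 37 °C the lowest. The rise at 41.5 °C against 37 °C was 1.4-fold, or 0.48 ± 0.08 (SE, 2 arrays at each temperature; interval 0.30 to 0.67; limma, adjusted p = 0.013). Leaving out the control lost the call (adjusted p = 0.177), as did fits without the array of X-rays alone (0.243) and without the 41.5 °C array lacking X-rays (0.0648).

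At 44 °C HMGCS1 stood 0.25 ± 0.08 above 37 °C, with an interval of 0.06 to 0.43, and missed the threshold (adjusted p = 0.115). The difference between 44 °C and 41.5 °C, -0.24 ± 0.08, did not pass either (adjusted p = 0.0961).

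IDI1, the isomerase, was highest at 44 °C. Its log2 level was 6.32 with X-rays and 6.13 without at 37 °C, 6.14 and 6.26 at 41.5 °C, and 7.03 and 6.71 at 44 °C. The arrays at 37 °C and 41.5 °C overlapped, while both at 44 °C lay above them. The rise at 44 °C was 1.57-fold against 37 °C (0.65 ± 0.12, interval 0.38 to 0.92, limma, adjusted p = 0.0113) and 1.6-fold against 41.5 °C (0.67 ± 0.12, adjusted p = 0.00607). The difference of 41.5 °C from 37 °C was -0.03 ± 0.12, with an interval of -0.30 to 0.25. The call against 37 °C was lost without the control (adjusted p = 0.215), without X-rays alone (0.133) or without the combined 44 °C array (0.0853), and the call against 41.5 °C without the combined 41.5 °C array (0.0638).

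FDPS, the synthase at the branch point, was lower at 44 °C. Its log2 level was 6.02 with X-rays and 5.91 without at 37 °C, 5.99 and 5.83 at 41.5 °C, and 5.60 and 5.44 at 44 °C. Both arrays at 44 °C lay below the other 4, and the arrays at 37 °C and 41.5 °C overlapped. FDPS fell by 0.45 ± 0.11 on the log2 scale against 37 °C, which is 1.36-fold lower (interval -0.70 to -0.20; limma, adjusted p = 0.0455). Against 41.5 °C the value was -0.39 ± 0.11 (adjusted p = 0.0496). Both adjusted p-values lie just under the threshold: the call against 41.5 °C was lost when any 1 array was left out (adjusted p 0.0942 to 0.221), and that against 37 °C without the control (0.321), X-rays alone (0.232), the 44 °C array (0.172) or the combined 44 °C array (0.128).

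The second FDPS feature gave another profile. It read 5.51 with X-rays and 5.35 without at 37 °C, 5.15 and 5.04 at 41.5 °C, and 5.05 and 5.09 at 44 °C, so that its arrays at both heated temperatures lay below those at 37 °C. In a fit of all 53617 features it differed by -0.33 ± 0.13 at 41.5 °C (limma, adjusted p = 0.438) and by -0.36 ± 0.13 at 44 °C (adjusted p = 0.253) against 37 °C, neither past the threshold. Both features were lower at 44 °C than at 37 °C, whereas at 41.5 °C the first gave -0.06 and the second -0.33. With the mean of both features the FDPS difference at 44 °C was -0.40 (adjusted p = 0.0803) and that against 41.5 °C -0.21 (adjusted p = 0.326). RefSeq places the antisense RNA RUSC1-AS1 over 3.81 kb of FDPS; it was not analysed here.

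**Figure D2:**
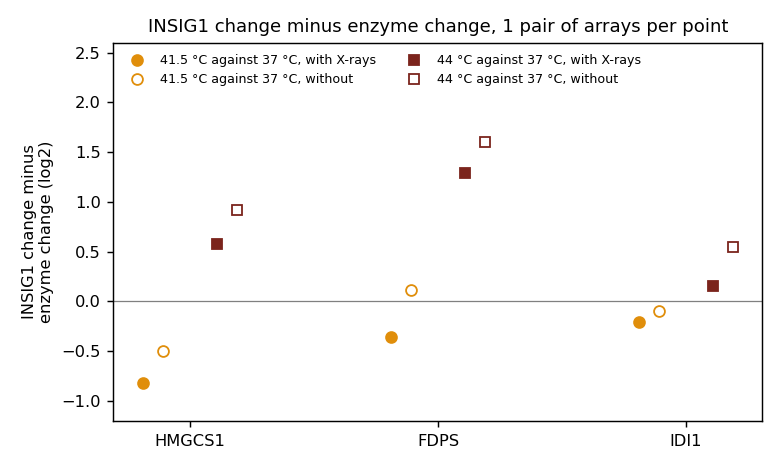
Change of INSIG1 minus the change of each enzyme on the log2 scale (vertical axis), for HMGCS1, FDPS and IDI1 (horizontal axis). Circles are 41.5 °C and squares 44 °C, each against 37 °C; filled symbols are the pair of arrays with X-rays and open symbols the pair without. All 6 squares lie above 0, from 0.16 to 1.60.

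Set against the enzymes, INSIG1 gained on each of them at 44 °C. Levels of different features are not comparable on an array, so the changes were compared. Between 44 °C and 37 °C INSIG1 changed by more than HMGCS1 in both pairs, by 0.58 with X-rays and 0.92 without. The margin over FDPS was 1.29 and 1.60, a mean of 2.72-fold, as the brake rose and the synthase fell. Over IDI1 it was the smallest, 0.16 and 0.54. These margins come from pairs of single arrays, use the same INSIG1 changes for each enzyme, and were not tested.

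At 41.5 °C the order turned for HMGCS1. INSIG1 changed by less than HMGCS1 there, by -0.82 with X-rays and -0.49 without. Its margin over IDI1 was -0.20 and -0.10, and that over FDPS had both signs, -0.35 and 0.12. The brake thus lost ground to HMGCS1 in both pairs at 41.5 °C and gained on it in both pairs at 44 °C.

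**Figure D3:**
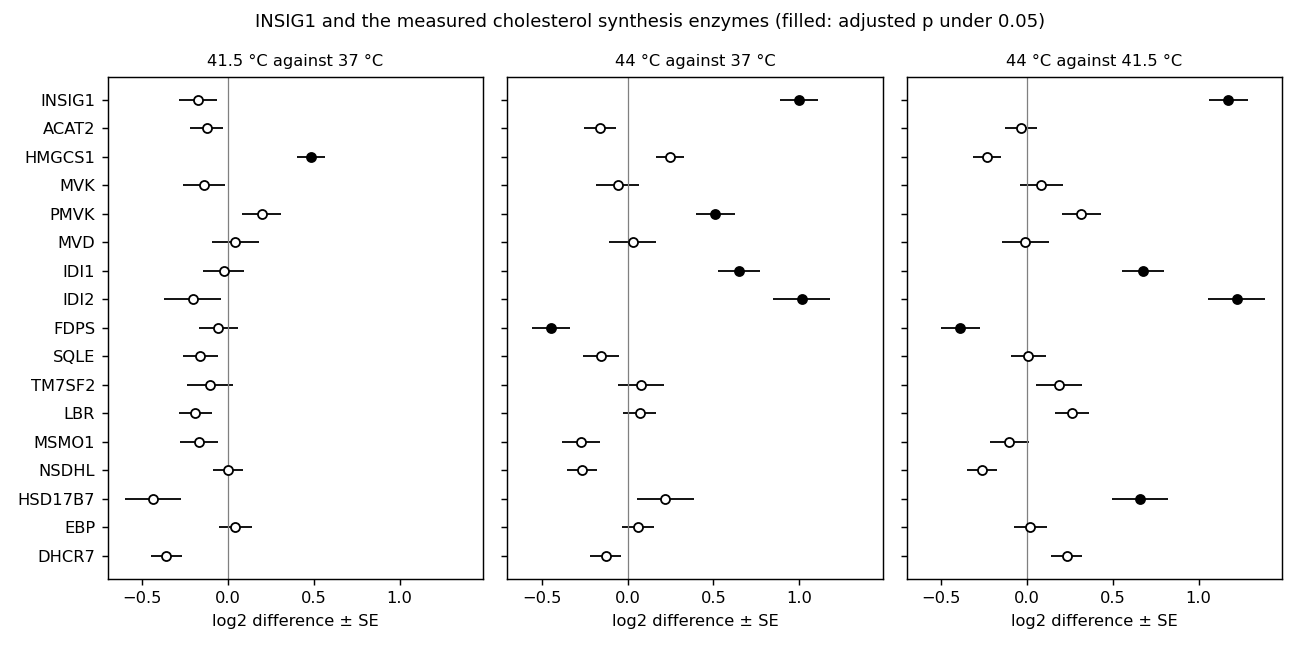
Log2 difference ± SE (horizontal axis) of INSIG1 and the 16 measured cholesterol synthesis enzymes (vertical axis, in pathway order) for 41.5 °C against 37 °C, 44 °C against 37 °C and 44 °C against 41.5 °C. Filled points passed an adjusted p under 0.05. Most enzymes lie near 0. INSIG1, IDI1 and IDI2 stand to the right in both panels of 44 °C, as do PMVK against 37 °C (0.51) and HSD17B7 against 41.5 °C (0.66).

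Most other enzymes of the pathway were not called. Of 20 further enzymes listed, 13 were measured here. At 44 °C against 37 °C 2 of the 13 rose and 0 fell, with a median of 0.03 beside -0.04 over all genes. Calls over all genes were 3.57% higher and 2.54% lower. PMVK, which phosphorylates mevalonate phosphate, rose by 0.51 ± 0.12 (limma, adjusted p = 0.0276). Its levels were 6.85 with X-rays and 6.61 without at 44 °C, against 6.16 and 6.28 at 37 °C. IDI2, a second isopentenyl isomerase known from skeletal muscle, rose 2.02-fold (1.01 ± 0.17, adjusted p = 0.00553). The PMVK call failed when limma's variance was fitted without its intensity trend (adjusted p = 0.117), in 1 fit over all features (0.11), and without the control (0.0748), X-rays alone (0.304) or the combined 44 °C array (0.16). The IDI2 call failed without the control (0.0957), X-rays alone (0.101) or the 44 °C array lacking X-rays (0.0626).

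With HMGCS1, IDI1 and FDPS counted in, 3 of 16 enzymes rose at 44 °C and 1 fell, beside 3.57% and 2.54% of all genes. The highest value was 1.01, for IDI2, whose level lay below that of the array's median gene, and the lowest was -0.45, for FDPS. Without the control or without the array of X-rays alone, 0 of 16 were called higher. Of the 13 further enzymes 7 had values above 0 and 6 below. The lowest of the 13 were the later sterol enzymes MSMO1, a demethylase (-0.27 ± 0.11, limma, adjusted p = 0.202), and NSDHL, a decarboxylase (-0.26 ± 0.09, adjusted p = 0.117), while HSD17B7, a sterol ketoreductase, stood at 0.22 ± 0.17 (adjusted p = 0.517).

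At 41.5 °C against 37 °C, HMGCS1 was the 1 enzyme of 16 called, and 0 of the other 13 enzymes passed, beside 2.18% of all genes higher and 1.1% lower. Their median was -0.14 beside -0.00 over all genes, and 10 of the 13 values were below 0. The lowest were HSD17B7 at -0.44 ± 0.17 (limma, adjusted p = 0.206), and DHCR7, which makes cholesterol from its last precursor, at -0.36 ± 0.09 (adjusted p = 0.0635). Between 44 °C and 41.5 °C HSD17B7 was 1.58-fold higher at 44 °C (0.66 ± 0.17, adjusted p = 0.028), a call that failed in 4 of 6 fits with an array left out, among them that without the combined 44 °C array, where the difference was 0.39 (adjusted p = 0.281). Over the 6 fits it ranged from 0.39 to 0.93. IDI2 was 2.33-fold higher in that comparison (1.22 ± 0.17, adjusted p = 0.00126). Thus 2 of the 13 were called higher and 0 lower, beside 4.9% and 7.23% of all genes.

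Of the genes that control SREBP, 8 of 13 listed were measured and 0 were called at either temperature against 37 °C or between the temperatures. Over all genes the called share in 1 direction was 1.1% to 7.23%, so 0 of 8 is not set apart from it. SREBF2, which encodes SREBP2, differed by 0.02 ± 0.10 at 44 °C (adjusted p = 0.941 in limma) and by -0.13 ± 0.10 at 41.5 °C (adjusted p = 0.568). SREBF1 differed by -0.20 and -0.23 and the escort SCAP by -0.29 and -0.20 at the same temperatures. INSIG2, the paralog of INSIG1, was lower in value at both, by -0.20 ± 0.12 at 44 °C (adjusted p = 0.398) and -0.44 ± 0.12 at 41.5 °C (adjusted p = 0.0789).

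Among genes of sterol uptake, 4 of 10 listed were measured. MYLIP, a ubiquitin ligase that limits sterol uptake, rose 2.94-fold at 44 °C (1.55 ± 0.10, limma, adjusted p = 8.42e-06). Its log2 level was 7.57 with X-rays and 7.51 without at 44 °C, against 5.94 and 6.04 at 37 °C, and the call held with any 1 array left out. STARD4, a sterol carrier of the cytosol, was 1.57-fold higher at 44 °C than at 41.5 °C (0.65 ± 0.12, adjusted p = 0.00534; 0.0615 with temperature as the single term) and differed from 37 °C by 0.40 ± 0.12 (adjusted p = 0.0716). The list median was 0.30 at 44 °C and 0.03 at 41.5 °C against 37 °C, with 1 rise and 0 calls. Calls of higher level over all genes were 3.57% and 2.18%.

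Few fatty acid and isoprenoid genes were called. Of 9 measured fatty acid genes of SREBP1, 0 were called at 44 °C against 37 °C and 1 fell at 41.5 °C. Calls over all genes were 3.57% higher and 2.54% lower at 44 °C, and 2.18% and 1.1% at 41.5 °C. SCD, the stearoyl-CoA desaturase, fell by 0.42 ± 0.08 at 41.5 °C (limma, adjusted p = 0.0209). That call failed without the trend (adjusted p = 0.217), over all features (0.188) and in fits that left out the control (adjusted p = 0.185), X-rays alone (0.32) or the combined 41.5 °C array (0.13). SCD was 0.42 ± 0.08 higher at 44 °C than at 41.5 °C (adjusted p = 0.00775), a call lost without the combined array at 41.5 °C (0.0587) or at 44 °C (0.0814), without the trend (0.101) and over all features (0.0572). With the mean of the SCD features that difference was 0.67 (adjusted p = 0.00178). Of 2 measured genes of the isoprenoid branch, DHDDS, a subunit of the enzyme that makes dolichol chains, was lower at 44 °C than at 41.5 °C (-0.64 ± 0.10, adjusted p = 0.00241), and 0 were called against 37 °C. Of 5 measured genes of sterol efflux and storage 0 passed in any comparison. For scale, 7 of 7 measured heat shock chaperones rose at 44 °C against 37 °C, with a median of 2.34, and 6 of 7 at 41.5 °C, with a median of 1.09.

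**Figure D4:**
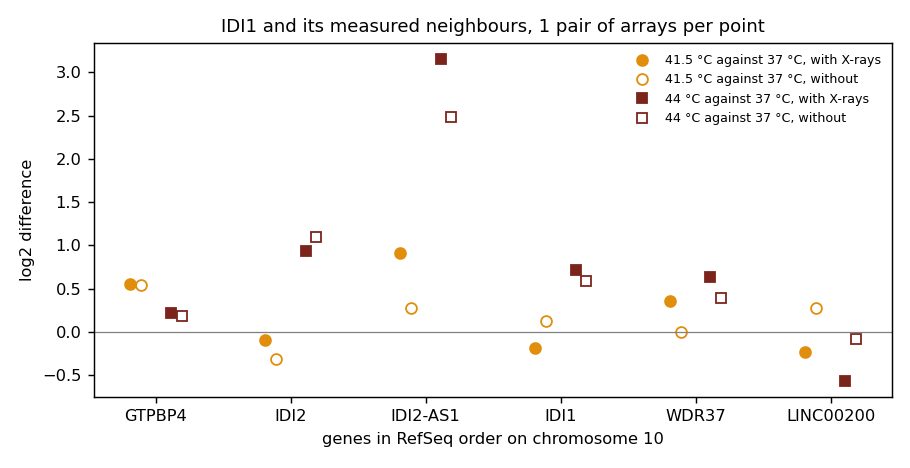
Log2 difference from 37 °C (vertical axis) of IDI1 and its measured neighbours in RefSeq order on chromosome 10 (horizontal axis). Circles are 41.5 °C and squares 44 °C; filled symbols are the pair of arrays with X-rays and open symbols the pair without. At 44 °C IDI2-AS1 is the highest, at 3.16 and 2.48, and LINC00200 lies below 0 in both pairs.

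IDI1 sits beside other genes that were called higher at 44 °C against 37 °C, IDI2, IDI2-AS1 and WDR37. Of all genes, 3.57% were called higher in that comparison. Whether neighbours change together was not tested. In RefSeq order on chromosome 10 the genes measured within 4 places of IDI1 are GTPBP4, IDI2, IDI2-AS1, then IDI1 itself, WDR37 and LINC00200. IDI2-AS1, a long noncoding RNA on the strand opposite to IDI1, overlaps it by 5.05 kb, and WDR37, also on the opposite strand, by 0.32 kb. The sources used here do not say whether the array tells the strands apart, so signal from IDI1 and from the overlapping RNA cannot be told apart where they share sequence. Overlap between IDI2-AS1 and IDI2 was not examined, so the IDI2 values may carry the same limit.

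IDI2-AS1 was listed at 6.75 with X-rays and 6.51 without at 44 °C, against 3.59 and 4.03 at 37 °C. Its rise was 7.06-fold (2.82 ± 0.18, limma, adjusted p = 8.05e-06). WDR37, a WD-repeat protein, rose by 0.51 ± 0.11 (adjusted p = 0.0257), which failed when either array at 37 °C or at 44 °C was left out (adjusted p 0.0664 to 0.295), without the trend (0.114) and over all features (0.105). GTPBP4, a GTPase of ribosome assembly, differed by 0.21 ± 0.07 at 44 °C (adjusted p = 0.142) and rose by 0.55 ± 0.07 at 41.5 °C (adjusted p = 0.00453), a call lost without the control (0.0985) or X-rays alone (0.191), without the trend (0.123) and over all features (0.112). LINC00200, a noncoding RNA that does not overlap IDI1, differed by -0.32 ± 0.17 at 44 °C (adjusted p = 0.339), with -0.56 with X-rays and -0.08 without. At 41.5 °C the differences of IDI2, IDI2-AS1 and WDR37 from 37 °C did not pass, at -0.21, 0.60 and 0.18, beside -0.03 for IDI1.

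**Figure D5:**
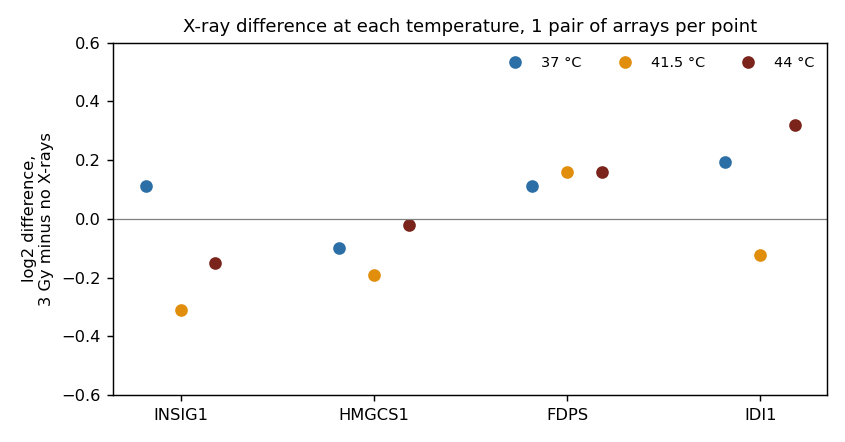
Log2 difference between the array with 3 Gy of X-rays and the array without (vertical axis) for each gene (horizontal axis) at 37 °C (blue), 41.5 °C (orange) and 44 °C (dark red), with 1 pair of arrays per point. FDPS lies above 0 and HMGCS1 below 0 at each temperature, and INSIG1 and IDI1 have both signs.

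X-rays gave no called difference in the 4 genes. Over all genes limma called 0 (0%), with 733 at an unadjusted p under 0.05. The radiation term was -0.12 ± 0.09 for INSIG1 (interval -0.32 to 0.09), -0.10 ± 0.07 for HMGCS1 (-0.25 to 0.05), 0.14 ± 0.09 for FDPS (-0.06 to 0.35) and 0.13 ± 0.10 for IDI1 (-0.09 to 0.35), each with adjusted p = 0.997. FDPS was higher with X-rays at 37, 41.5 and 44 °C, by 0.11, 0.16 and 0.16, and HMGCS1 was lower, by -0.10, -0.19 and -0.02. Of the other enzymes and the regulators, 0 of 13 and 0 of 8 were called. The overall 0 also depended on the heated arrays: without either 44 °C array 85 genes were called, 40 higher and 45 lower, none of them these 4.

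The departure from additivity is the X-ray difference in heated cells minus that at 37 °C, and has no replicate check. The time before RNA is not stated for the control or the combined arrays, so it cannot be told apart from X-rays here. It was -0.42 for INSIG1 at 41.5 °C and -0.26 at 44 °C. Among the 7442 genes above the median level, the median size of the departure was 0.14 at either temperature, and 93.2% and 76.4% of them departed by less than INSIG1. For IDI1 the departure was -0.32 at 41.5 °C and 0.13 at 44 °C, and for HMGCS1 and FDPS it lay between -0.09 and 0.08.

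The genes whose profiles were most like each of the 4 were taken by Pearson r over the 6 arrays, among genes above the median level with at least 0.5 times the range. The arrays share their treatments and each r describes 6 points. For INSIG1 they were WDR47, a WD-repeat protein (r = 0.998), MIR637 (0.991) and CLK1, a kinase of splicing factors (0.991), of 1010 candidates. CLK1 read 9.71 with X-rays and 9.78 without at 44 °C, against 7.68 and 7.49 at 37 °C, a larger difference than that of INSIG1. For HMGCS1 they were GPAT3, an acyltransferase of triglyceride synthesis (0.996), TCTN1, a protein of the cilium base (0.988), and CNOT9, a subunit of the CCR4-NOT complex (0.982).

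For FDPS the likest profiles were those of ACOT2, a mitochondrial acyl-CoA thioesterase (0.992), TRIP6, a LIM-domain adaptor (0.991), and HERC2P9 (0.991), a pseudogene that may share signal with its parent gene. For IDI1 they were MSX1, a homeobox factor (0.993), ZBTB10, a zinc finger protein (0.991), and RRAGC, a GTPase that relays amino acid supply to mTORC1 (0.986). No gene stood in more than 1 of these 4 sets of 3, and none of the 12 is on the pathway lists used here. For INSIG1 the filter on level and range left out all 13 further cholesterol enzymes, so their absence was fixed beforehand. Enzymes below the median level, such as IDI2, could enter none of the sets.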

How the data were processed

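RNA of 6 A549 samples, 300 ng each per the labels' protocols, was hybridised to Affymetrix arrays. Per the submitters' processing notes, the authors used Affymetrix Expression Console 1.1 and RMA, and they deposited log2 values. No genome build for the probes is named in the sources used here. The table holds 53617 features, of which 16098 have 1 gene symbol, 0 several and 37519 none here. All 16098 matched gene identifiers of the RefSeq table of GRCh38.p14, which altered 0 symbols. For 779 genes with several features the one with the highest mean was used, leaving 14884 genes; overlapping or near-identical genes can share signal.

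An additive model (temperature factor and radiation term) was fitted with limma 3.58.1 in R 4.3.3, with an intensity trend (2 residual and 8.06 prior degrees of freedom, median residual SD 0.113). Any interaction is part of that residual. Standard errors had a median of 0.138 (temperature) and 0.113 (radiation), a precision limited by having 6 arrays. P-values are two-sided. In simulated data for 44 °C against 37 °C, 200 of 14884 genes were changed, with no X-ray effect or interaction. Of changes of 1 on the log2 scale 98% were called, and of changes of 0.5 29%, with 6 false calls. The data themselves had 910 calls in this comparison, so these shares may not carry over. Alternatives were other scalings, moderation without trend, a filter on dim genes, all features, mean features, single terms and leaving out each array.

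The genes and lists were chosen with earlier results of these data known. Named genes were drawn from the 4 genes, called list members or else the highest and lowest at 44 °C, SREBP regulators, the 3 likest profiles of each gene, and overlapping neighbours. Not every gene that these rules cover is named. GTPBP4, LINC00200, MSMO1, NSDHL, DHCR7 and the cell type markers with values were named after their values were seen.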

Additional observations from a re-analysis of the deposited data

Results flagged for a closer look

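For 2 genes the X-ray difference had opposite signs at different temperatures, with 1 pair of arrays at each, and the difference between temperatures was not tested. Time before RNA, not stated for the control or the combined arrays, cannot be told apart from X-rays in these pairs. INSIG1 was higher with X-rays at 37 °C (0.11 on the log2 scale) and lower at 41.5 °C (-0.31) and at 44 °C (-0.15). The difference at 37 °C thus exceeded those by 0.42 and 0.26. IDI1 was higher with X-rays at 37 °C (0.19) and at 44 °C (0.32) and lower at 41.5 °C (-0.12), gaps of 0.32 and 0.44.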

How the results depend on the processing

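INSIG1 kept its calls at 44 °C under all alternatives run, with values from 0.83 to 1.17 against 37 °C and from 1.03 to 1.32 against 41.5 °C when 1 array was left out. The calls of HMGCS1, IDI1 and FDPS did not hold throughout, and the causes were not tested. Without the intensity trend, HMGCS1 at 41.5 °C (0.48, adjusted p = 0.159), IDI1 at 44 °C against 37 °C (0.65, adjusted p = 0.074) and FDPS at 44 °C against 37 °C (-0.45, adjusted p = 0.0957) and against 41.5 °C (-0.39, adjusted p = 0.0913) were lost. In 1 fit of all features, where more are tested, the same values had adjusted p = 0.157, 0.0728, 0.111 and 0.127, and IDI1 against 41.5 °C (0.67) had 0.0548. With temperature as the single term FDPS had adjusted p = 0.0542 and 0.0603, and with mean features -0.40 (0.0803) and -0.21 (0.326). Leaving out 1 array gave HMGCS1 at 41.5 °C 0.42 to 0.55, FDPS -0.47 to -0.42 and -0.40 to -0.38, and IDI1 0.51 to 0.79 and 0.48 to 0.86. Among uncalled values, IDI1 at 41.5 °C ranged from -0.22 to 0.16 (0.02 without X-rays alone, 0.16 without the combined 41.5 °C array). With mean features, INSIG1 minus FDPS was 0.0196 at 41.5 °C and 1.38 between 44 °C and 41.5 °C, and the FDPS departures were -0.0033 and -0.0766, with their signs turned.

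Genes called at 44 °C against 37 °C numbered 405 without the trend, 1916 over all features and 263 to 1212 with 1 array left out. At 41.5 °C the counts were 9, 33 and 19 to 800, and between 44 °C and 41.5 °C 791 without the trend and 1024 to 1299. For X-rays 1 gene was called with median centring, with bright genes alone and with mean features, and 0 to 85 with 1 array left out. No paired analysis was possible because each group holds 1 array and the labels give no replicate numbers that groups share; the additive model compares temperatures within each radiation state. Signal over background cannot be judged from these values, as no detection measure was used here.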
